A study of Bos taurus with 57 samples.

Results

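The response of the anterior pituitary to plane of nutrition was set against the response of the testes, gene by gene, in Holstein-Friesian bull calves. The 37 libraries labelled anterior pituitary or testes were taken from the 57 libraries of the series. The anterior pituitary was represented by 9 libraries on the high plane and 10 on the low plane, and the testes by 10 and 8. All came from male calves euthanized at 126 days of age, whose labels give growth rates of 1.08 kg per day on the high plane and 0.5 kg per day on the low plane. The diets differed in milk replacer and concentrate together, and no other treatment or genotype was applied. The methods describe 20 calves that each gave all tissues, so pituitary and testes libraries of 1 calf are expected among the 37, but the labels do not say which, and libraries were treated as independent. The p-values measure the spread between these libraries.

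The anterior pituitary secretes luteinising hormone and follicle-stimulating hormone into the blood. In the testes these act on Leydig cells, which make testosterone, and on Sertoli cells, which nurse the developing germ cells. A diet that acts on both organs could change the same genes in each, or change each organ separately, and the comparison asks which of these the counts show. Genes are given by their Ensembl identifiers, because the files do not pair them with names. For that reason no role can be given for any gene below, and the tissue labels were not checked against marker genes. In whole tissue, fewer cells of a type and less RNA per cell cannot be told apart.

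Reads had been counted on 24616 genes, and 13861 of these were expressed in both tissues by edgeR's default filter. Total counts per library ran from 6895844 to 27426173 in the pituitary and from 8586953 to 26067610 in the testes. Low plane testes libraries held fewer reads than high plane ones, with medians of 14180871 and 18655866. A two-sided exact permutation test of the means gave p = 0.0333, and p = 0.086 when adjusted over 6 exact tests of library measures. The testes library A48, whose label carries the letter of the pituitary libraries, had a median correlation of 0.976 with the other 17 testes libraries and of 0.733 with the 19 pituitary libraries, and was kept as labelled.

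The libraries also differed along an axis that the labels do not name. Within each tissue it was measured by a library score, an average over 200 genes of log2 CPM, the read count scaled to library size, where the genes had been picked without the tissue scored. The scores formed 2 separate clusters, which in the pituitary spanned -1.67 to -0.84 and 3.93 to 4.76. Those of the testes spanned -1.12 to 1.56 and 4.19 to 4.98. In the pituitary, 3 of 9 high plane and 2 of 10 low plane libraries fell in the lower cluster. In the testes it held 1 of 10 high plane libraries, B42, and 5 of 8 low plane libraries. Two-sided Fisher exact tests of these counts gave p = 0.628 in the pituitary and p = 0.043 in the testes (adjusted p = 0.628 and 0.086). The score genes had a median level of 22.1 CPM in the upper cluster and 0.258 CPM in the lower cluster of the pituitary, and of 24.1 and 0.821 CPM in the testes.

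The 2 tissues were unbalanced in opposite directions along this axis. The mean score was 0.88 higher on the low than on the high plane in the pituitary (two-sided exact permutation test, p = 0.358, adjusted p = 0.439) and 2.49 lower in the testes (p = 0.0297 by the same exact test, adjusted p = 0.086). The score thus lay along the contrast tested, and each comparison was made without the score, with the score, and in the 26 libraries of the upper cluster alone.

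**Figure D1:**
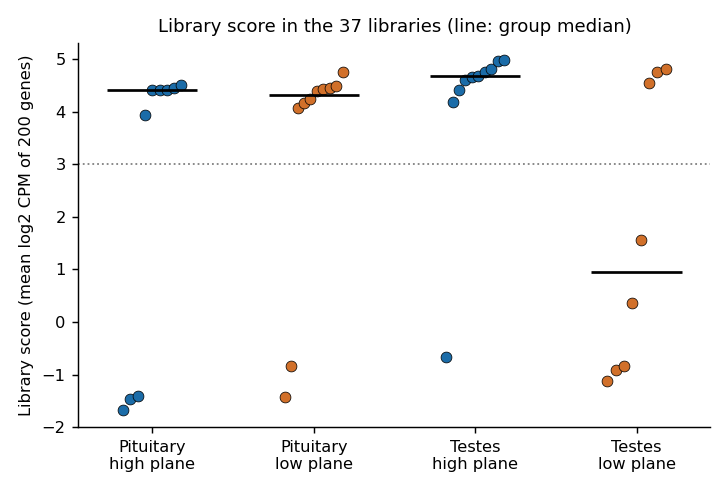
Library score (y axis, mean log2 CPM of 200 genes) of each library in the 4 groups, with the group median as a line and a dotted line at 3, between the clusters. Of 8 low plane testes libraries 5 lie below the dotted line, against 1 of 10 on the high plane, 3 of 9 high plane pituitary libraries and 2 of 10 low plane pituitary libraries.

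Without the score, the diet effect differed between pituitary and testes for 607 of 13861 genes (4.38%; edgeR quasi-likelihood test, false discovery rate (FDR) below 0.05). The log2 fold change, low relative to high plane, was lower in the pituitary than in the testes for 514 of them (3.71%) and higher for 93 (0.671%). On their own, 171 genes (1.23%) were differentially expressed (DEG) in the pituitary, 30 with higher (0.216%) and 141 with lower expression (1.02%) on the low plane. The testes had 1312 DEG (9.47%), 1046 with higher (7.55%) and 266 with lower expression (1.92%). The direction of this split turned with 20 higher and 67 lower testes DEG when the log2 total count was a covariate, and with 129 higher and 369 lower in the upper cluster alone. DEG of both tissues numbered 23, which is 13.5% of the pituitary DEG, against the 9.47% of all genes that were testes DEG. Of these 23, 10 changed the same way and 13 opposite ways, all 13 lower in the pituitary and higher in the testes.

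A gene was placed in 1 tissue only where it was a DEG there, was not a DEG in the other tissue, and had a called difference between the 2 effects. On that rule, without the score, 98 genes responded in the pituitary only, 7 of them higher and 91 lower on the low plane. There were 369 genes that responded in the testes only, 305 higher and 64 lower. A further 50 pituitary DEG and 920 testes DEG missed the threshold in the other tissue without a called difference, so a response in 1 tissue only was not shown for them. The difference was called for 127 genes that were DEG in neither tissue.

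Across all 13861 genes, without the score, the 2 diet effects ran against each other. Pearson's r between pituitary and testes log2 fold changes was -0.373, and 27% of genes had the same sign in both. These genes share libraries and are not independent, so the value is a description. The slope of each gene on the axis in the arcuate nucleus, another tissue of the series whose libraries enter neither effect, correlated at 0.509 with the pituitary effect, at -0.796 with the testes effect and at 0.818 with their difference, over 13467 genes. The sign of the difference was that of the arcuate slope for 88.1% of genes tested, and for 90.8% of the genes with a called difference that had a slope.

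With the score in the model, the difference was called for 634 genes (4.57%), about as many as without it, but in a more even split of 355 lower (2.56%) and 279 higher (2.01%) in the pituitary relative to the testes. With TMM factors computed within each tissue the split was 316 lower and 323 higher. The pituitary had 1025 DEG (7.39%), 510 higher (3.68%) and 515 lower (3.72%), and the testes 1563 DEG (11.3%), 749 higher (5.40%) and 814 lower (5.87%). The biological coefficient of variation fell from 0.503 to 0.192, and the median standard error of the difference from 0.359 to 0.179 on the log2 scale. Of the genes called without the score and with it, 262 were shared, all with the same sign, which is 43.2% of the first set and 41.3% of the second.

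The allowance for the axis turned the relation between the tissues from opposed to weakly alike. Pearson's r between pituitary and testes log2 fold changes was 0.14, and 59.2% of genes had the same sign. The correlations with the arcuate slope were 0.0503 for the pituitary effect, 0.236 for the testes effect and -0.162 for their difference. Of the genes with a called difference that had a slope, 40.1% had its sign, against 41.7% of all genes. The share was 27.6% for differences higher in the pituitary and 50.5% for those lower there. The arcuate slopes helped to pick the score genes, so a fit with the score weakens these correlations partly by construction.

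**Figure D2:**
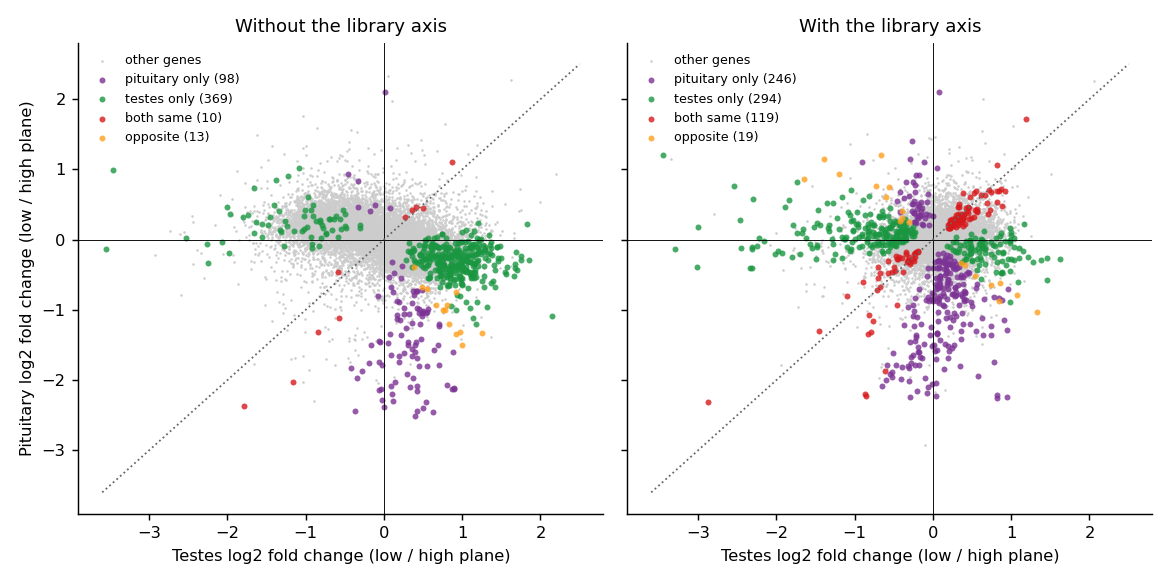
Log2 fold change (low relative to high plane) of 13861 genes in the testes (x axis) and pituitary (y axis), without and with the library score, with the dotted line at equal effects. Without the score the cloud slopes downward (r = -0.373) and 305 of the 369 testes only genes lie to the right. With it the cloud slopes weakly upward (r = 0.14), 119 same-way genes lie along the dotted line and 200 of the 246 pituitary only genes lie below zero.

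With the score, 138 genes were DEG in both tissues, 119 the same way and 19 opposite ways. Of the pituitary DEG, 13.5% were also testes DEG, which is close to the 11.3% of all genes that were testes DEG, so the count of shared genes by itself says little. Their direction was less even, in that 86.2% of the 138 moved the same way, against 59.2% of all genes. The 246 pituitary only genes comprised 46 higher and 200 lower on the low plane, and the 294 testes only genes 99 higher and 195 lower.

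For most DEG the data did not settle whether the other tissue responded. With the score, 641 pituitary DEG and 1131 testes DEG were neither called in the other tissue nor called for the difference. The difference had an unadjusted p below 0.05 for 290 and 665 of these by the same edgeR test. A called difference accompanied 26.1% of pituitary DEG and 20.2% of testes DEG. Among pituitary DEG 63% had the same sign in the testes, and among testes DEG 69.7% had the same sign in the pituitary.

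Membership of the classes changed between the models. Of the 369 testes only genes without the score, 81 stayed in that class with it, 137 were called in nothing, and 104 remained testes DEG without a called difference. Of the 98 pituitary only genes, 81 stayed. Of the 13 opposite genes, 1 stayed and 12 became pituitary only genes. The higher testes only genes fell from 305 to 99, whereas the lower pituitary only genes rose from 91 to 200.

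The 26 libraries of the upper cluster, 6 high and 8 low plane pituitary and 9 high and 3 low plane testes libraries, gave the comparison without any adjustment for the score. They called the difference for 263 of 13861 genes, 136 higher and 127 lower, with 703 pituitary DEG and 498 testes DEG. There were 121 pituitary only, 111 testes only, 19 same-way and 1 opposite gene. All 634 differences called with the score had the same sign here, and 214 were called. Their median size was 0.88 with the score and 0.82 here, whereas the 607 called without the score had a median size of 1.28, which was 0.58 here, with 604 of the same sign and 95 called. The upper cluster is part of the 37 libraries and is no independent sample. The 11 libraries of the lower cluster, also part of the 37, were 3 high and 2 low plane pituitary and 1 high and 5 low plane testes libraries. Every testes effect there rests on B42 as the single high plane library, so a count of calls cannot show whether differences are absent. Of the 634 differences called with the score, 625 (98.6%) had the same sign there, and of the 607 called without it 601 (99%). Both sets of genes were picked in fits that include the libraries of each cluster. That choice favours shared signs and repeated calls, so these shares are a description and no separate support.

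**Figure D3:**
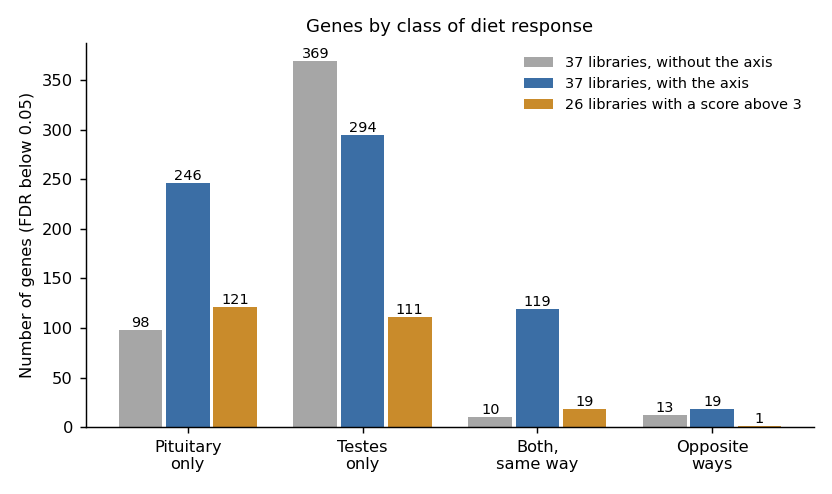
Number of genes (y axis, FDR below 0.05) in each class of diet response, in 37 libraries without and with the library score and in the 26 libraries of the upper score cluster. The pituitary only class holds 98, 246 and 121 genes, the testes only class 369, 294 and 111, the same-way class 10, 119 and 19, and the opposite class 13, 19 and 1.

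Single testes libraries carried part of these counts. With the score, leaving out the high plane library B42, the single high plane testes library in the lower cluster, gave 312 differences, 524 testes DEG, 153 pituitary only, 125 testes only, 46 same-way and no opposite genes at FDR below 0.05. Without the low plane testes library B50 there were 321 differences, 759 testes DEG, 115 testes only, 62 same-way and 6 opposite genes. The pituitary DEG ran between 736 and 1106 over all 37 libraries left out in turn. The count of 19 opposite genes was thus the least stable of the classes.

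ENSBTAG00000018948 was the first of the genes that rose in the pituitary only. Its level ran from 5.73 to 29.8 CPM (median 17) in the 9 high plane pituitary libraries and from 44.1 to 93.6 CPM (median 73.9) in the 10 low plane libraries. In the testes it ran from 26.7 to 60 CPM (median 39.1) on the high plane and from 23.8 to 73.6 CPM (median 39.2) on the low plane. The pituitary groups did not overlap, in either score cluster, and the testes groups overlapped nearly in full. The log2 fold change was 2.10 ± 0.23 (SE) in the pituitary (FDR 8.92e-08) and 0.08 ± 0.24 in the testes (FDR 0.868), a difference of 2.02 ± 0.33 (FDR 0.000625). This difference was 2.08 ± 0.33 without the score and 1.57 ± 0.38 in the upper cluster (FDR 0.0319). In the arcuate nucleus its log2 fold change was 0.88 ± 0.18 with that tissue's score (FDR 0.743) and 0.81 ± 0.18 without it (FDR 0.477).

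ENSBTAG00000007665 was the second gene of this kind, at far lower levels. It ran from 0.559 to 1.76 CPM (median 0.804) on the high plane and from 0.687 to 4.93 CPM (median 2.22) on the low plane in the pituitary, and 8 of 10 low plane libraries were above every high plane library. Testes levels were 2.02 to 3.6 CPM (median 2.5) and 1.16 to 4.43 CPM (median 3.21). Its log2 fold change was 1.41 ± 0.22 in the pituitary (FDR 4.44e-05) and -0.27 ± 0.24 in the testes (FDR 0.502), a difference of 1.68 ± 0.33 (FDR 0.00243). The difference was 1.15 ± 0.38 without the score and was not called (FDR 0.0709).

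The larger pituitary only class, lower on the low plane, was led by ENSBTAG00000016726. All 10 low plane pituitary libraries, from 0.446 to 2.37 CPM (median 0.849), lay below all 9 high plane libraries, from 2.99 to 11.8 CPM (median 4.41). In the testes this gene was more abundant and went the other way, from 18.9 to 50.5 CPM (median 30) on the high plane and from 32 to 94.8 CPM (median 56.8) on the low plane. That testes difference did not pass the threshold, with a log2 fold change of 0.35 ± 0.19 (FDR 0.246) against -1.81 ± 0.22 in the pituitary (FDR 5.01e-07). The difference between the tissues was -2.15 ± 0.29 (FDR 5.64e-05) with the score, -2.88 ± 0.41 without it and -1.97 ± 0.35 in the upper cluster.

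ENSBTAG00000012443 belonged to the same class at low levels, but its testes log2 fold change with the score was negative as well. Pituitary libraries ran from 1.95 to 8.1 CPM (median 3.16) on the high plane and from 0.687 to 2.25 CPM (median 0.851) on the low plane, and 8 of 10 low plane libraries were below every high plane library. The 2 exceptions were the low plane libraries of the lower score cluster, and within the upper cluster the groups did not overlap. The testes held 7.24 to 19.8 CPM (median 9.41) and 6.18 to 20.6 CPM (median 13.4). The log2 fold changes were -1.67 ± 0.14 in the pituitary (FDR 2.73e-10) and -0.28 ± 0.13 in the testes (FDR 0.171), with a difference of -1.39 ± 0.19 (FDR 5.64e-05).

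Another gene with a leading difference without the score, ENSBTAG00000018775, also fell in the pituitary only. Its 10 low plane libraries, from 4.23 to 13.1 CPM (median 6.33), lay below the 9 high plane libraries, from 14.2 to 29.8 CPM (median 19.5). In the testes it ran from 48.4 to 98.5 CPM (median 61.8) and from 56 to 134 CPM (median 83.9). The difference was -1.86 ± 0.28 without the score (FDR 0.000424) and -1.40 ± 0.21 with it (FDR 0.00022), and the testes log2 fold change itself moved from 0.41 ± 0.20 to 0.06 ± 0.16.

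**Figure D4:**
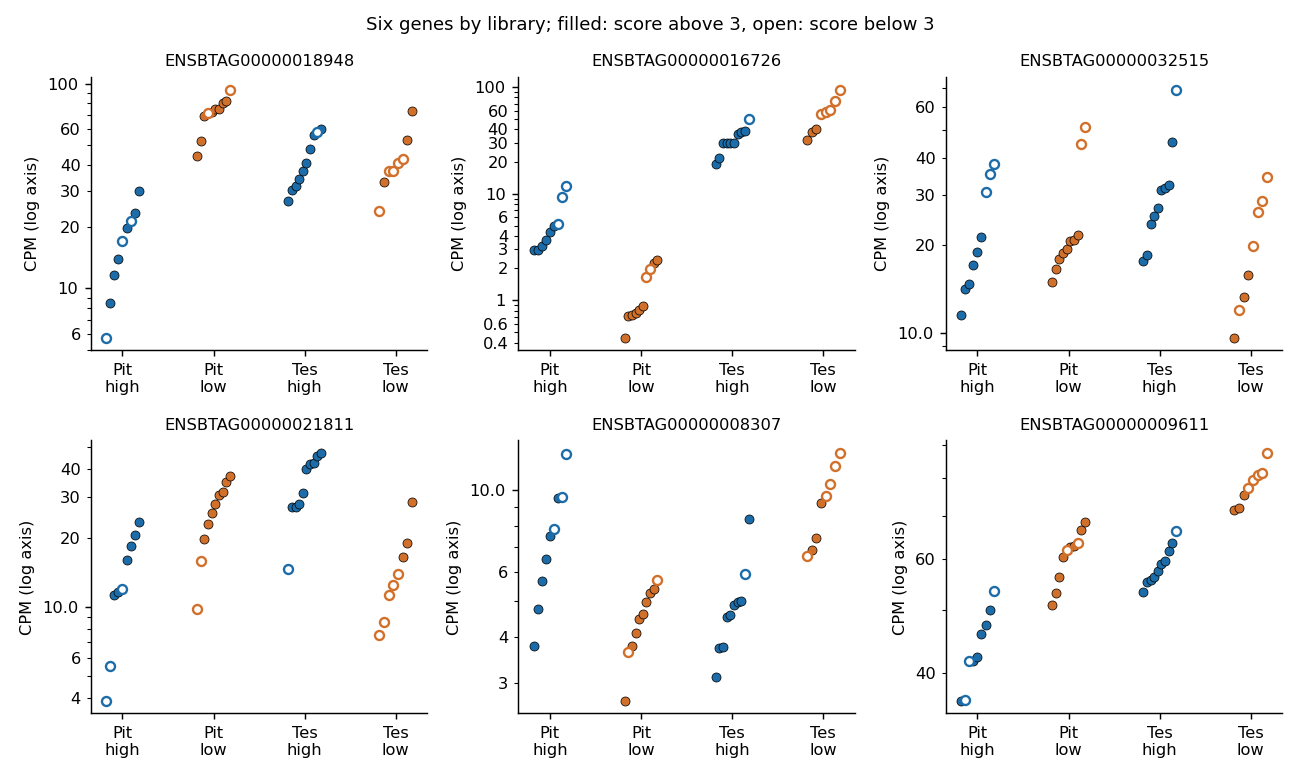
CPM (log axes) of 6 genes in each library of the pituitary (Pit) and testes (Tes), high and low plane, sorted by value within a group, with filled points for scores above 3 and open points below. ENSBTAG00000018948 and ENSBTAG00000016726 separate the diets in the pituitary, ENSBTAG00000032515 separates them in the filled testes points, ENSBTAG00000021811 and ENSBTAG00000008307 shift opposite ways in the tissues, and ENSBTAG00000009611 is higher on the low plane in both.

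Genes that fell in the testes only were led by ENSBTAG00000032515, which became visible when the score was allowed for. Its testes level ran from 17.7 to 69.2 CPM (median 29) on the high plane and from 9.6 to 34.4 CPM (median 17.8) on the low plane. The groups overlapped over all libraries, and the highest value of each belonged to the lower score cluster. In the upper cluster all 3 low plane libraries, from 9.6 to 15.8 CPM, were below all 9 high plane libraries, from 17.7 to 45.5 CPM. The log2 fold change was -1.22 ± 0.18 in the testes (FDR 0.000149) and 0.31 ± 0.15 in the pituitary (FDR 0.228), with a difference of 1.53 ± 0.23 (FDR 0.00022). Fitted without the score, the testes value was -0.69 ± 0.30 (FDR 0.119) and the difference 0.83 ± 0.41 (FDR 0.183).

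ENSBTAG00000030575 was another gene that fell in the testes only, with smaller values. In the upper cluster its testes groups overlapped, with 2 of 3 low plane libraries below every high plane library. It ran from 7.84 to 23.6 CPM (median 10.7) on the high plane and from 5.91 to 13.2 CPM (median 9.6) on the low plane in the testes, with B42 the highest of all at 23.6 CPM. The pituitary groups ran from 11.9 to 30.3 CPM (median 17) and from 16.7 to 39 CPM (median 19.7). The testes log2 fold change was -0.69 ± 0.13 (FDR 0.00115), the pituitary value 0.32 ± 0.11 (FDR 0.0678) and the difference 1.01 ± 0.17 (FDR 0.000878), against 0.57 ± 0.28 without the score.

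Abundance was higher, and the values were nearly equal without and with the score, for ENSBTAG00000020455, a testes only gene with a leading difference without the score. Its testes level ran from 131 to 212 CPM (median 180) on the high plane and from 85.4 to 160 CPM (median 100) on the low plane, and 6 of 8 low plane libraries were below every high plane library. In the pituitary it ran from 786 to 1310 CPM (median 1020) and from 1000 to 1560 CPM (median 1300), so that 9 of 10 low plane libraries were above the high plane median. The testes log2 fold change was -0.61 ± 0.12 without the score (FDR 0.00248) and -0.64 ± 0.13 with it (FDR 0.00278). The difference was 0.95 ± 0.17 (FDR 0.00138) and 0.98 ± 0.18 (FDR 0.00122). The pituitary value of 0.35 ± 0.11 with the score just missed the threshold (FDR 0.0553), so its place among testes only genes rests on a value close to the limit.

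Genes that rose in the testes only were fewer with the score than without it. ENSBTAG00000005150 ran from 28.8 to 56.5 CPM (median 39.7) on the high plane and from 45.1 to 129 CPM (median 76.8) on the low plane, with 6 of 8 low plane libraries above every high plane library. The 5 low plane libraries of the lower score cluster, from 74.4 to 129 CPM, were among these 6. Within the upper cluster 1 of 3 low plane libraries was above every high plane library. In the pituitary it ran from 6.23 to 19.1 CPM (median 7.81) and from 4.23 to 15.1 CPM (median 5.6). The testes log2 fold change was 0.98 ± 0.27 without the score and 0.50 ± 0.12 with it (FDR 0.00819), and the difference -1.50 ± 0.38 and -0.80 ± 0.17 (FDR 0.00463). In the upper cluster the difference was called (-0.74 ± 0.19, FDR 0.0392), while the testes effect of 0.39 ± 0.14 was not (FDR 0.107).

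ENSBTAG00000038584 was scarce in the testes and abundant in the pituitary. Testes libraries held 0.53 to 2.68 CPM (median 1.85) on the high plane and 1.69 to 4.39 CPM (median 3.07) on the low plane. Pituitary libraries held 24.3 to 101 CPM (median 64.2) and 30.5 to 74.6 CPM (median 53.9). The log2 fold change was 0.95 ± 0.22 in the testes (FDR 0.00544) and -0.27 ± 0.14 in the pituitary (FDR 0.261), with a difference of -1.23 ± 0.26 (FDR 0.00547). Without the score neither the testes effect (FDR 0.107) nor the difference (FDR 0.146) was called. Its difference was called in the upper cluster (FDR 0.0266) and the testes effect was not (FDR 0.0658).

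Both tissues responded alike most clearly in ENSBTAG00000009611, which was called in both under all 3 fits. It ran from 36.2 to 53.5 CPM (median 42.3) and from 51 to 68.5 CPM (median 62.2) in the high and low plane pituitary, and 8 of 10 low plane libraries were above every high plane library. In the testes the groups did not overlap, from 53.3 to 66.3 CPM (median 58.2) against 71.5 to 87.5 CPM (median 78.4). The log2 fold changes were 0.47 ± 0.06 in the pituitary (FDR 5.22e-06) and 0.33 ± 0.08 in the testes (FDR 0.00476). Their difference of 0.14 ± 0.10 was not called.

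ENSBTAG00000001771 rose in both tissues once the score was in the model. Pituitary libraries ran from 44 to 84.7 CPM (median 51.3) and from 56.6 to 89.7 CPM (median 63.3), and testes libraries from 72.1 to 109 CPM (median 76.7) and from 85.4 to 140 CPM (median 120). Within the upper cluster the diets did not overlap in either tissue, with highest high plane values of 54.2 and 82.7 CPM in pituitary and testes and lowest low plane values of 56.6 and 85.4 CPM. On the log2 scale the changes were 0.29 ± 0.04 (FDR 3.21e-05) and 0.24 ± 0.05 (FDR 0.00375). Without the score they were 0.18 ± 0.13 and 0.51 ± 0.13, of which the testes value alone passed (FDR 0.0131). The testes effect missed the threshold in the upper cluster (FDR 0.0562).

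Of the genes lower on the low plane in both tissues, ENSBTAG00000010123 differed widely in level between the score clusters. In the testes it ran from 10.5 to 516 CPM (median 357) on the high plane and from 3.6 to 235 CPM (median 16.9) on the low plane. Within the lower cluster no testes library exceeded 18.3 CPM, and within the upper cluster none was below 77.5 CPM. In the upper cluster of the pituitary the diets separated, from 79.6 to 128 CPM (median 95.8) against 39 to 67.3 CPM (median 57.5). The log2 fold changes with the score were -0.80 ± 0.17 in the pituitary (FDR 0.00192) and -1.10 ± 0.20 in the testes (FDR 0.000678). Without it they were -0.54 ± 0.72 and -2.30 ± 0.80, neither of them called.

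ENSBTAG00000005096 fell in both tissues with the score, by 0.39 ± 0.08 in the pituitary (FDR 0.0015) and by 0.50 ± 0.10 in the testes (FDR 0.00116) on the log2 scale. Its pituitary level ran from 43.6 to 93.1 CPM (median 51) on the high plane and from 27.1 to 72.1 CPM (median 39.3) on the low plane, and 7 of 10 low plane libraries were below every high plane library. Testes levels ran from 24.4 to 61.6 CPM (median 33.8) and from 22.3 to 40.6 CPM (median 31.7). The testes value without the score was -0.14 ± 0.20 (FDR 0.59). In the upper cluster the testes value was -0.42 ± 0.13 and did not pass (FDR 0.0762).

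Opposite responses with the score comprised 11 genes higher in the pituitary and lower in the testes and 8 the other way. ENSBTAG00000021811 was among the first kind. Its pituitary level ran from 3.88 to 23.5 CPM (median 11.9) on the high plane and from 9.74 to 37.3 CPM (median 26.8) on the low plane. In the testes it ran from 14.6 to 46.9 CPM (median 35.7) and from 7.53 to 28.5 CPM (median 13.1), and 5 of 8 low plane libraries were below every high plane library. These 5, from 7.53 to 13.9 CPM, were the low plane libraries of the lower score cluster. Within the upper cluster 2 of 3 low plane libraries were below every high plane library. With the score, expression rose by 0.76 ± 0.17 in the pituitary (FDR 0.00305) and fell by 0.73 ± 0.20 in the testes (FDR 0.0147) on the log2 scale. The difference of 1.49 ± 0.26 was called with the score (FDR 0.00106), without it (2.14 ± 0.41, FDR 0.0024) and in the upper cluster (1.56 ± 0.29, FDR 0.00838), where the testes effect itself missed the threshold (FDR 0.0512).

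ENSBTAG00000018469 had smaller opposite effects. It ran from 24.2 to 47.9 CPM (median 29) and from 26.8 to 56.1 CPM (median 33.4) in the high and low plane pituitary, and from 56.2 to 116 CPM (median 65) and from 43.8 to 84.3 CPM (median 63.9) in the testes. The groups overlapped widely in both tissues. With the score the log2 fold changes were 0.31 ± 0.09 (FDR 0.0236) and -0.39 ± 0.10 (FDR 0.0104), and the difference was 0.70 ± 0.13 (FDR 0.00192). Without it the difference was 0.33 ± 0.23 (FDR 0.301). The difference was called in the upper cluster (0.54 ± 0.14, FDR 0.0424), but neither the pituitary effect (FDR 0.11) nor the testes effect (FDR 0.119) was.

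Of the genes lower in the pituitary and higher in the testes, ENSBTAG00000008307 was called in opposite directions both without and with the score. All 10 low plane pituitary libraries, from 2.69 to 5.73 CPM (median 4.55), were below the high plane median of 7.52 CPM, where the high plane ran from 3.78 to 12.5 CPM. All 8 low plane testes libraries, from 6.65 to 12.6 CPM (median 9.42), were above the high plane median of 4.75 CPM, where the high plane ran from 3.13 to 8.37 CPM. The log2 fold changes with the score were -0.64 ± 0.18 (FDR 0.0194) and 0.74 ± 0.20 (FDR 0.0142), with a difference of -1.38 ± 0.26 (FDR 0.00201). In the upper cluster the difference was called (-1.22 ± 0.31, FDR 0.0411), but neither tissue was on its own.

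ENSBTAG00000005784 was the last of the opposite genes described, and its testes levels were low. Pituitary libraries ran from 1.24 to 9.47 CPM (median 7.77) on the high plane and from 0.696 to 5.99 CPM (median 4.92) on the low plane. Testes libraries ran from 0.106 to 1.52 CPM (median 0.853) and from 0.424 to 1.73 CPM (median 1.18), so that the lowest value was that of B42 and the groups overlapped. The log2 fold changes were -0.78 ± 0.19 (FDR 0.00905) and 1.07 ± 0.27 (FDR 0.00839). The difference was -1.85 ± 0.33 (FDR 0.00116) with the score and -1.03 ± 0.55 (FDR 0.208) without it. The testes effect was not called in the upper cluster (FDR 0.0995), which made it a pituitary only gene there.

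The pituitary only genes that fell on the low plane were mostly more abundant in the testes. With the score, 164 of these 200 genes (82%) had a higher mean CPM in the testes than in the pituitary of the upper cluster libraries, against 49.8% of all genes tested and 72.7% of the 11 opposite genes that rose in the pituitary. Their median level was 5.53 CPM in the pituitary and 15.6 CPM in the testes, where all genes had medians of 23.8 and 23.6 CPM. At least a 2-fold higher level in the testes was found for 128 of the 200, against 2290 of all 13861 genes. Their median log2 fold change on the low plane was -0.86 in the pituitary and 0.13 in the testes. No test was made of these shares.

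The arcuate nucleus gave a look at the same genes in 20 further libraries, which entered neither diet effect but helped to pick the score genes, and which may come from the same calves. No gene was called there for diet by edgeR in either model, with 465 of 13467 genes at an unadjusted p below 0.05 with the score. Of the 200 genes that fell in the pituitary only, 181 were measured there and 130 (71.8%) were lower on the low plane, against 50.2% of all genes. Their median log2 fold change was -0.13, and 29 of them (16%) had an unadjusted p below 0.05, against 3.45% of all genes. The 46 genes that rose in the pituitary only, 45 of them measured, were higher in the arcuate nucleus in 28 cases (62.2%), against 49.8% of all genes. Of these 45, 2 (4.44%) had an unadjusted p below 0.05, against 3.45% of all genes. For the testes only genes with the score the shares were near those of all genes, with 49 of 97 (50.5%) higher among those that rose and 91 of 191 (47.6%) lower among those that fell. Without the score, 37 of 72 measured genes that fell in the pituitary only (51.4%) were lower in the arcuate nucleus, and 14 of them (19.4%) had an unadjusted p below 0.05, against 10.1% of all genes. Of the testes only genes without the score, 253 of 286 measured genes that rose (88.5%) were higher there, against 49.6% of all genes. Of those that fell, 44 of 62 (71%) were lower, against 50.4% of all genes. The lowest arcuate scores, -1.34 and -0.67, were those of the low plane libraries C6 and C33. The arcuate contrast was thus unbalanced along the axis in the same direction as the testes, and the part of the score in these shares was not tested. Both the genes of a class and the arcuate fit, which uses that tissue's own score, differ between the models.

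**Figure D5:**
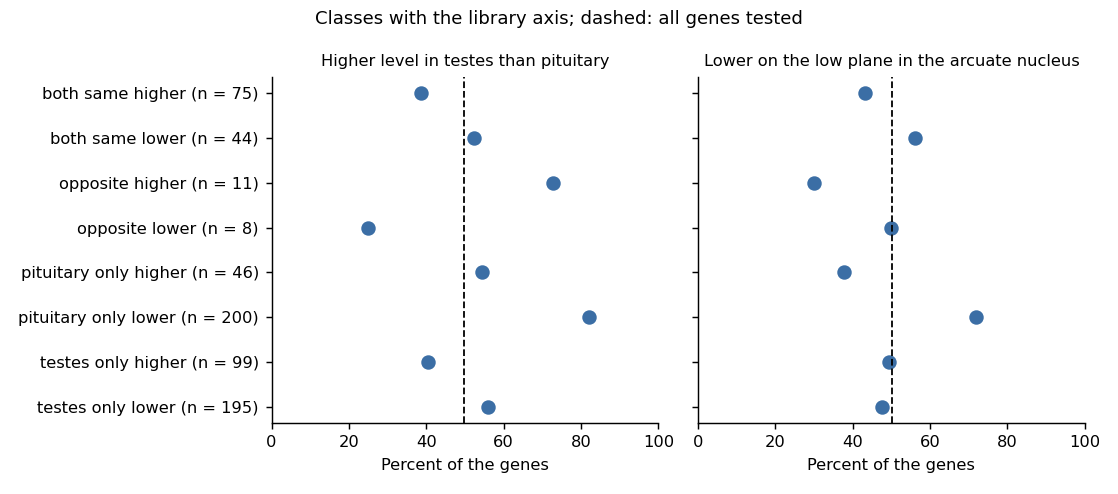
Percent of the genes of each class, with the score, that had a higher level in the testes than in the pituitary (left) and that were lower on the low plane in the arcuate nucleus, of those measured there (right), with all genes as a dashed line. Higher and lower in the class names give the direction in the pituitary for the opposite class. The 200 pituitary only lower genes stand at 82% and 71.8%, against 49.8% and 50.2% of all genes.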

How the data were processed

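The authors deposited, for each library, whole-number counts of reads per Ensembl gene without normalization. Their processing notes name CASAVA 1.4, STAR, HTSeq and edgeR. The genome build and annotation are not given in the sources used here, and the methods state that 3 libraries with few reads were removed after sequencing. Samples were grouped by the tissue and diet in the labels.

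Counts of all 37 libraries were fitted together in R 4.3.3 with edgeR 4.0.16 (filterByExpr in each tissue, TMM, quasi-likelihood test, Benjamini-Hochberg adjustment over 13861 genes, threshold 0.05), with 4 groups of tissue and diet. The difference of diet effects is low minus high plane in the pituitary, minus the same in the testes. For the library score, log2 CPM (prior count 2) was averaged within each tissue over 200 genes with the largest positive slopes on the first scaling dimension (500 genes) within diets in the other 2 tissues, arcuate nucleus included. It entered centred within tissue, with a slope for each tissue. It was devised in an earlier analysis, after the scaling had been seen. Standard errors were derived from each fold change (log2) and its F statistic. CPM values use TMM-scaled totals over both tissues. Permutation and Fisher tests were run in Python 3.11.15 with scipy 1.17.1.

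Members, gene lists and tests were chosen with earlier results of these data known. No identifier of the files could be matched to a symbol in the reference table (0 matched), so the planned gene lists, marker checks, promoters and motifs were not applied and no sequence is shown. The rule named up to 10 genes per comparison by smallest p-value. As they carry no names, the text was kept, after the values were seen, to the first 2 in each direction of each class with the score, and the first 2 in each direction of the difference without it. The alternatives used DESeq2 1.42.0 and limma 3.58.1 (voom with quality weights), other scalings, no filter, separate fits per tissue, the log2 total count as covariate, other forms of the score, and each library left out. The fits with 1 score cluster and with the score as 2 levels were chosen after seeing the data. The scripts were tested on simulated data.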

Additional observations from a re-analysis of the deposited data

Results flagged for a closer look

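The high plane testes library B42 stood apart from the other 9 of its group in 6 groups of values, by Dixon's criterion at the 95% level. The search covered 80 groups of values, and chance meets the criterion in about 1 of 20. As B42 belongs to the high plane testes alone, only part of the 80 could flag it. Its library score was -0.67, where the nearest other library had 4.19. Its level was the highest of the group for ENSBTAG00000001771 (109 CPM, next 82.7), ENSBTAG00000005096 (61.6 CPM, next 37.9), ENSBTAG00000012443 (19.8 CPM, next 13.1), ENSBTAG00000018469 (116 CPM, next 77.2) and ENSBTAG00000030575 (23.6 CPM, next 12.3). All 6 flags fell on this 1 library, the only one of its group in the lower score cluster, and the part of the score in them was not tested.

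The diet effects in pituitary and testes differed, by the test of the difference itself, for 607 genes without the library score and 634 with it. Among the genes named, the difference in log2 fold change with the score, pituitary minus testes, was positive for ENSBTAG00000018948 (2.02), ENSBTAG00000007665 (1.68), ENSBTAG00000032515 (1.53), ENSBTAG00000021811 (1.49), ENSBTAG00000030575 (1.01), ENSBTAG00000020455 (0.98) and ENSBTAG00000018469 (0.70). It was negative for ENSBTAG00000016726 (-2.15), ENSBTAG00000005784 (-1.85), ENSBTAG00000018775 (-1.40), ENSBTAG00000012443 (-1.39), ENSBTAG00000008307 (-1.38), ENSBTAG00000038584 (-1.23) and ENSBTAG00000005150 (-0.80). Without the score the 4 leading differences were 2.08 for ENSBTAG00000018948, 0.95 for ENSBTAG00000020455, -2.88 for ENSBTAG00000016726 and -1.86 for ENSBTAG00000018775.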

How the results depend on the processing

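Counts of genes are given in the order difference, pituitary DEG, testes DEG, same way, opposite, pituitary only and testes only, and a count that stayed within 1.5 times its main value is left out. Without the score, DESeq2 gave 982 differences, 279 pituitary DEG, 28 same way, 20 opposite, 150 pituitary only and 575 testes only genes. Voom with quality weights gave 9637, 1238, 10545, 495, 313, 235 and 8602. The log2 total count as covariate gave 48 differences, 87 testes DEG, 3 same way, 0 opposite, 27 pituitary only and 14 testes only genes. No filter gave 402 differences, 6 opposite and 200 testes only genes. Separate fits gave 181 differences, 83 pituitary DEG, 3 opposite, 53 pituitary only and 83 testes only genes. TMM within each tissue and size factors of the DESeq2 type gave 6 opposite genes each. The upper cluster gave 263, 703, 498, 19, 1 and 111 (pituitary only within range). Counts are not given for the lower cluster, which held 1 high plane testes library.

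With the score, DESeq2 gave 1050 differences, 217 same way, 40 opposite and 534 testes only genes. Voom gave 1353, 1584, 2613, 282, 73 and 767 (pituitary only within range). The log2 total count gave 1004 testes DEG and 11 opposite genes. Separate fits gave 326 differences, 673 testes DEG, 73 same way, 158 pituitary only and 116 testes only genes. A single slope gave 2526 testes DEG, 186 same way and 37 opposite genes. The score as 2 levels gave 320 differences, 753 testes DEG, 40 same way, 6 opposite, 150 pituitary only and 127 testes only genes. Score genes picked in the arcuate nucleus alone gave 602 differences, and no count left its range. The cause of these changes was not tested.

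Leaving out each library in turn, the counts with the score ran from 312 to 835 for the difference, 736 to 1106 for pituitary DEG, 524 to 1935 for testes DEG, 46 to 149 for same way, 0 to 30 for opposite, 153 to 269 for pituitary only and 115 to 439 for testes only. Besides B42 and B50, leaving out A1, A23, A52, A14, B31 or B20 moved the opposite count past 1.5 times, to between 10 and 30. Without the score the ranges were 260 to 2691, 119 to 185, 422 to 3903, 6 to 16, 1 to 29, 72 to 122 and 88 to 2098, the largest differences count without B42 and the smallest without the low plane testes library B2. The difference count without the score left its range for 17 of 37 libraries.

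With a library left out, all 962 values recomputed for the named genes kept direction and call. These values are the differences and, for the same-way genes, the tissue effects, and the tissue effects of the other genes were not followed. As no opposite gene was called without B42, each of the 4 opposite genes named lost a tissue call there. Under the other alternatives 250 kept both and 6 kept direction but missed the threshold, and none turned. No paired analysis was possible because the labels do not give the calf and the numbers are unique to a library. Depth limits the scarce genes, and a gene not called in a tissue is not shown to be unaffected there.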
